A study of Mus musculus with 12 samples.

Results

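Gadd45b, Gadd45g and Neil3 are 3 mouse genes that the literature ties to active DNA demethylation or to repair of damaged bases. They were taken by gene symbol from the deposited value table, where each of the 3 is read by 1 probe set, among 9539 genes on 10360 probe sets. The arrays measured RNA, and DNA methylation was not measured in these samples. Gene expression was recorded on 12 Affymetrix arrays, 3 for each of 4 groups. Fibroblasts at passage 3 carried, per the labels, the OG2-GFP reporter and a Rosa26 reverse tetracycline transactivator, written as M2rtTA, M3rtTA and M4rtTA on the 3 arrays. The last 2 names may be a slip of numbering in the labels, so 3 genotypes are not established. Day-1 cells were fibroblasts derived at passage 3 from mice made with iPS cells of the factors Oct4 (Pou5f1) and Tet1, labelled OG2-GFP/Rosa26-M2rtTA, and were kept 1 day in ES medium with doxycycline, which turns the factors on. No untreated culture of these cells is among the arrays. Mouse source, medium, doxycycline and factors therefore cannot be told apart when day-1 cells are set against fibroblasts. Below, rose and fell mean higher and lower between groups. The iPS cells, at passage 10, were line OT#b, made with Oct4 and Tet1 on the same background, so they stand for a single line. ES cells were the R1 line of strain 129 at passage 20. Both pluripotent lines grew on feeder fibroblasts that had been treated with mitomycin C, and a plating step to remove feeders is described for ES cells alone. Separate cultures are not stated for the arrays within a group, and the tests below therefore measure the spread between these arrays, which may be technical.

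Gadd45 proteins are small acidic stress sensors with no known enzyme activity. They bind and activate the kinase MAP3K4 upstream of p38 and JNK, bind PCNA and the mitotic kinase CDK1, and have been proposed to bring the base excision repair machinery to methylated promoters. In that scheme TET enzymes oxidise methylated cytosine, a DNA glycosylase cuts out the oxidised base, and repair enzymes fill the gap with unmethylated cytosine. Gadd45b is known as a target of NF-kB and TGF-beta signalling, and Gadd45g as a gene induced by cytokines and during early differentiation. Neil3 is a DNA glycosylase of the Nei family that removes oxidised bases, prefers single-stranded DNA, opens crosslinks between DNA strands at stalled replication forks, and is known to be made mainly by dividing cells.

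The promoters are shown because Oct4 was among the induced factors and 1 of the 3 windows holds its octamer motif. Each window runs from 250 bases before to 50 bases after the annotated start and is RefSeq sequence of build GRCm38.p6, the C57BL/6J reference, read on the gene's strand. The windows are chr10:80929841-80930140 on the plus strand for Gadd45b, chr13:51846425-51846724 on the plus strand for Gadd45g and chr8:53639016-53639315 on the minus strand for Neil3. Capitals mark matches on either strand to 5 of the 10 motifs searched, namely the E-box CACGTG, the octamer ATTTGCAT, the TATA motif TATAAA, the CCAAT box and the GC box GGGCGG.
Gadd45b: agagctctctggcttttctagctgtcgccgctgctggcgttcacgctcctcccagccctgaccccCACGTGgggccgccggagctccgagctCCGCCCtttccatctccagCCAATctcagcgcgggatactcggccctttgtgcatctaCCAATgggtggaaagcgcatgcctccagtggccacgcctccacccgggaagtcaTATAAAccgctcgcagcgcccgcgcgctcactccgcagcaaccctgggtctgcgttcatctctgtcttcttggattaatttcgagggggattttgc
Gadd45g: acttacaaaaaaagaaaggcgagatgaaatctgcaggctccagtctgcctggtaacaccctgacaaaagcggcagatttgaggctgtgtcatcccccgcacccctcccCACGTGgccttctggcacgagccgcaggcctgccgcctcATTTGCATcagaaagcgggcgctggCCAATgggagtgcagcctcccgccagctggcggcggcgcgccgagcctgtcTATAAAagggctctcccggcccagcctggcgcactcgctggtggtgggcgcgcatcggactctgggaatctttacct
Neil3: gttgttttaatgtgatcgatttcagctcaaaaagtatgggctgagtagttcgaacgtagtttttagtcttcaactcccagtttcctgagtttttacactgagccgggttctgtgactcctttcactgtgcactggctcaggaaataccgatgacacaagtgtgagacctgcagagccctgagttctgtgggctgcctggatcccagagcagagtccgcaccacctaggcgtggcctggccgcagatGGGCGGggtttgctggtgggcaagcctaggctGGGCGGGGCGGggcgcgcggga

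The octamer lay at -103 from the start of Gadd45g and in neither other window, and 1.74% of the 32851 promoter windows of this length held it. Gadd45b and Gadd45g shared an E-box, at -185 in Gadd45b and -142 in Gadd45g, and 7.15% of windows held that motif. Both also held a TATA motif, found in 13.6% of windows, and a CCAAT box, found in 37.4%, with 2 CCAAT boxes in Gadd45b and 1 in Gadd45g. Neil3 had none of these 4 motifs and held 3 GC boxes, of which those at +29 and +34 overlap by their end bases. A GC box was present in 35.7% of windows, Gadd45b with 1 match included. The E2F motifs TTTCCCGC (1.07% of windows) and TTTGGCGC (0.514%) were not in these windows, nor was the CRE motif TGACGTCA (1.79%), the AP-1 motif TGANTCA (7.81%) or the CHR motif TTTGAA (17.9%). The windows held 24 CpG sites in Gadd45b, 21 in Gadd45g and 14 in Neil3, against a median of 7, and 24.8% and 36.3% of windows held at least as many as Gadd45g and Neil3. A match describes these letters only.

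Across the 12 arrays the 3 genes followed 3 different courses. Gadd45b stayed within 2-fold of its fibroblast level on average in every group and was highest in iPS cells and lowest in ES cells. Gadd45g was highest in fibroblasts and day-1 cells and lowest in ES cells, 4.51-fold below fibroblasts. Neil3 was highest in day-1 cells, 2.03-fold above fibroblasts, and lowest in iPS cells. Group means spanned 1.09 on the log2 scale for Gadd45b, 2.17 for Gadd45g and 1.44 for Neil3, against a median span of 1.35 over all genes of the table.

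**Figure D1:**
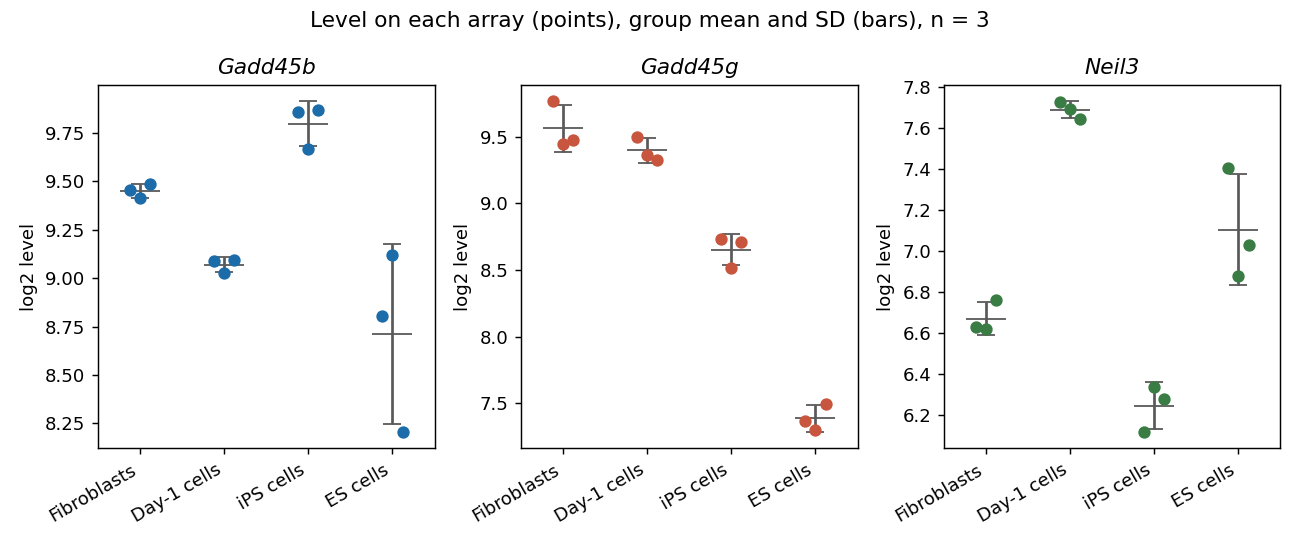
Log2 level of Gadd45b, Gadd45g and Neil3 on each array (points) by group, with the group mean and SD (bars, n = 3). Gadd45b peaked in iPS cells at 9.80, Gadd45g declined to 7.39 in ES cells, and Neil3 peaked in day-1 cells at 7.69. The y axes differ between panels and do not start at 0.

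A difference was called where limma, fitted over all 9539 genes, gave an adjusted p under 0.05 and the groups differed by at least 2-fold, which is 1 on the log2 scale. The share of all genes called was 7.79% for day-1 cells against fibroblasts, 51.3% for iPS cells against fibroblasts, 55.6% for ES cells against fibroblasts, 44.2% for iPS cells against day-1 cells, 49.9% for ES cells against day-1 cells and 6.90% for iPS cells against ES cells. By adjusted p alone these shares were 57.1%, 94.2%, 94.9%, 92.8%, 93.4% and 57.7% in the same order. A small adjusted p without a 2-fold difference was therefore common in this table, whose probe sets all vary between arrays. The share of all genes whose groups do not overlap was not counted, so lack of overlap below sets no gene apart. Of the 3 genes, 1 was called in day-1 cells against fibroblasts (Neil3), 0 in iPS cells against fibroblasts, 1 in ES cells against fibroblasts (Gadd45g), 1 in iPS cells against day-1 cells (Neil3), 1 in ES cells against day-1 cells (Gadd45g) and 2 in iPS cells against ES cells (Gadd45b and Gadd45g). In iPS cells against fibroblasts 2 of the 3 genes had an adjusted p under 0.05 by limma.

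The pluripotent groups had lower array medians, 7.89 to 8.06 on the log2 scale against 8.25 to 8.29 in day-1 cells and fibroblasts. The median difference of all genes was -0.35 for iPS cells and -0.35 for ES cells against fibroblasts, and -0.34 and -0.32 for the same groups against day-1 cells. It was 0.05 for day-1 cells against fibroblasts and 0.01 for iPS against ES cells. All 19 fibroblast markers and all 19 pluripotent cell markers were in the table. Fibroblast markers averaged 11.1 to 11.2 on the log2 scale on the day-1 arrays and 11.3 to 11.5 on the fibroblast arrays, and pluripotent markers averaged 10.97 to 11.24 on the iPS and ES arrays. In the macrophage list 8 of 13 markers were in the table, with means of 6.20 to 6.32 in the pluripotent lines and 7.17 to 7.66 in day-1 cells and fibroblasts.

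**Figure D2:**
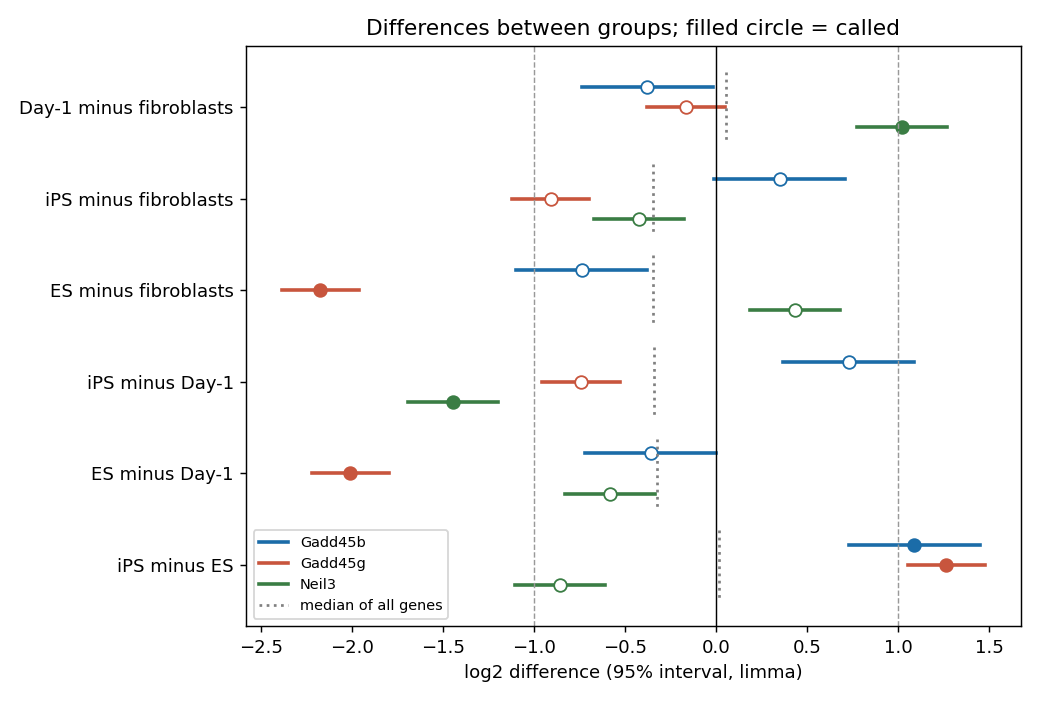
Log2 difference of each gene in the 6 comparisons (circles, filled where called) with its 95% interval from limma (bars). Dashed lines stand at 2-fold, and the dotted mark of each comparison is the median difference of all genes, near -0.35 where a pluripotent line was set against fibroblasts.

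Gadd45g, whose protein activates the same stress kinase as its relatives, had the widest span of the 3. Its log2 levels were 9.76, 9.45 and 9.48 in fibroblasts, 9.50, 9.36 and 9.33 in day-1 cells, 8.73, 8.52 and 8.71 in iPS cells and 7.37, 7.30 and 7.50 in ES cells. Fibroblasts and day-1 cells overlapped, every iPS array lay below them, and every ES array lay below the iPS arrays. Gadd45g fell in ES cells to 7.39 ± 0.10, against 9.56 ± 0.18 in fibroblasts (SD, n = 3 each), a change of -2.17 ± 0.10 on the log2 scale (SE, limma adjusted p = 1.1e-10). Set against day-1 cells, with 9.40 ± 0.09, the ES level fell by 2.01 ± 0.10, or 4.02-fold (limma adjusted p = 3.0e-10). Of all genes, 17.6% differed by more between ES cells and fibroblasts and 16.3% between ES and day-1 cells. With each array centred on the common median, the ES difference of Gadd45g was -1.83 from fibroblasts and -1.66 from day-1 cells.

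In iPS cells Gadd45g stood between these levels, at 8.65 ± 0.12. It was 1.88-fold below fibroblasts, with a log2 difference of -0.91 ± 0.10 and a limma adjusted p of 9.9e-07, and so stayed under the 2-fold minimum. Relative to the median of all genes that difference was -0.56. Against day-1 cells the difference was -0.75 ± 0.10 (limma adjusted p = 8.1e-06), with a 95% interval of -0.96 to -0.53 that stayed within 2-fold, and was -0.49 with centred arrays. Gadd45g was higher in iPS cells than in ES cells by 1.26 ± 0.10, or 2.40-fold (limma adjusted p = 4.4e-07), and 3.64% of genes differed by more between these lines. Day-1 cells and fibroblasts differed by -0.17 ± 0.10 (limma adjusted p = 0.17, 95% interval -0.38 to 0.05), and by -0.06 without fibroblast replicate 1. In the order of its levels, fibroblasts and day-1 cells were thus the only neighbours that did not differ by adjusted p.

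Gadd45b, the NF-kB and TGF-beta target of the family, changed less. Its log2 levels were 9.46, 9.41 and 9.48 in fibroblasts, 9.09, 9.03 and 9.09 in day-1 cells, 9.86, 9.67 and 9.87 in iPS cells and 8.81, 9.12 and 8.21 in ES cells. Fibroblasts, day-1 cells and iPS cells did not overlap with one another, while ES cells spread over 0.91 and overlapped with day-1 cells. The ES SD of 0.46 was exceeded by 1.38% of genes in that group, whose median SD was 0.11. In fibroblasts, by contrast, the SD of Gadd45b was 0.04 and 90.9% of genes varied more.

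The call for Gadd45b was in iPS against ES cells, with 9.80 ± 0.12 in iPS cells and 8.71 ± 0.46 in ES cells (SD, n = 3 each), a difference of 1.09 ± 0.17 or 2.12-fold (limma adjusted p = 1.1e-04), and 5.56% of genes differed by more. Without ES replicate 3, the array at 8.21, the difference was 0.83 and no longer reached 2-fold. Neighbours in the order of levels did not pass. The difference was 0.35 ± 0.17 for iPS cells against fibroblasts (limma adjusted p = 0.060), -0.38 ± 0.17 for day-1 cells against fibroblasts (limma adjusted p = 0.067) and -0.36 ± 0.17 for ES against day-1 cells (limma adjusted p = 0.053). The fit pools the spread of the 4 groups, ES cells included. Fitted on the compared groups alone, the limma adjusted p was 9.5e-04 for day-1 cells against fibroblasts and 0.0028 for iPS cells against fibroblasts, with ranges over the alternatives of 9.5e-04 to 0.14 and 0.0026 to 0.14. The iPS difference from fibroblasts was 0.58 after quantile normalization and 0.60 with centred arrays. ES against day-1 cells was the least stable, at -0.11 without ES replicate 3, -0.56 without ES replicate 2, -0.12 after quantile normalization and -0.01 with centred arrays, with an adjusted p of 0.0017 to 0.94. The 95% intervals of day-1 cells and iPS cells against fibroblasts, -0.74 to -0.02 and -0.01 to 0.71, stayed within 2-fold. Gadd45b was 1.66-fold higher in iPS than in day-1 cells (0.73 ± 0.17, limma adjusted p = 9.7e-04) and 1.67-fold lower in ES cells than in fibroblasts (-0.74 ± 0.17, limma adjusted p = 8.0e-04). The ES difference from fibroblasts was -0.49 without ES replicate 3 and -0.39 with centred arrays. Since the median of all genes lay lower in iPS cells, the iPS difference was 0.70 against fibroblasts and 1.07 against day-1 cells relative to that median.

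Neil3, the glycosylase, had log2 levels of 6.63, 6.62 and 6.76 in fibroblasts, 7.73, 7.70 and 7.65 in day-1 cells, 6.12, 6.34 and 6.28 in iPS cells and 7.41, 6.88 and 7.03 in ES cells. By mean level it was among the dimmest 25% of genes, and whether its values stand above background was not tested. The 4 groups did not overlap, which was not counted over all genes. Neil3 rose in day-1 cells to 7.69 ± 0.04, against 6.67 ± 0.08 in fibroblasts (SD, n = 3 each), a difference of 1.02 ± 0.11 (SE, limma adjusted p = 8.7e-06), and 7.58% of genes differed by more. The value stands just above 2-fold: it was 0.92 after quantile normalization and 0.99 to 1.06 when single arrays were left out, with the call lost without day-1 replicate 1 (0.9993), fibroblast replicate 1 (0.9988) or fibroblast replicate 2 (0.992). In iPS cells, at 6.25 ± 0.11, Neil3 fell by 1.44 ± 0.11 against day-1 cells, or 2.72-fold (limma adjusted p = 4.7e-08), and 25.3% of genes differed by more. With centred arrays this difference was -1.19.

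Neil3 differed less between the other groups. It was 1.34-fold lower in iPS cells than in fibroblasts (-0.43 ± 0.11, limma adjusted p = 0.0030), close to the median of all genes, from which it lay -0.08 apart. With each array centred on the common median, that iPS difference was -0.17 with an adjusted p of 0.20, and the adjusted p ranged from 0.0010 to 0.20 over the alternatives. ES cells, at 7.11 ± 0.27, were 1.35-fold above fibroblasts (0.43 ± 0.11, limma adjusted p = 0.0026) and 1.5-fold below day-1 cells (-0.58 ± 0.11, limma adjusted p = 2.8e-04). The difference from day-1 cells was -0.25 after quantile normalization (limma adjusted p = 0.081) and -0.24 with centred arrays (0.087), and no longer passed. The difference from fibroblasts was 0.28 without ES replicate 1, 0.68 after quantile normalization and 0.78 with centred arrays, with an adjusted p of 0.012 at most over the alternatives. The difference of iPS from ES cells was -0.86 ± 0.11, or 1.81-fold lower in iPS cells (limma adjusted p = 3.8e-05), under the 2-fold minimum and past it at -1.05 after quantile normalization. In ES cells the SD of 0.27 was exceeded by 8.87% of genes.

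**Figure D3:**
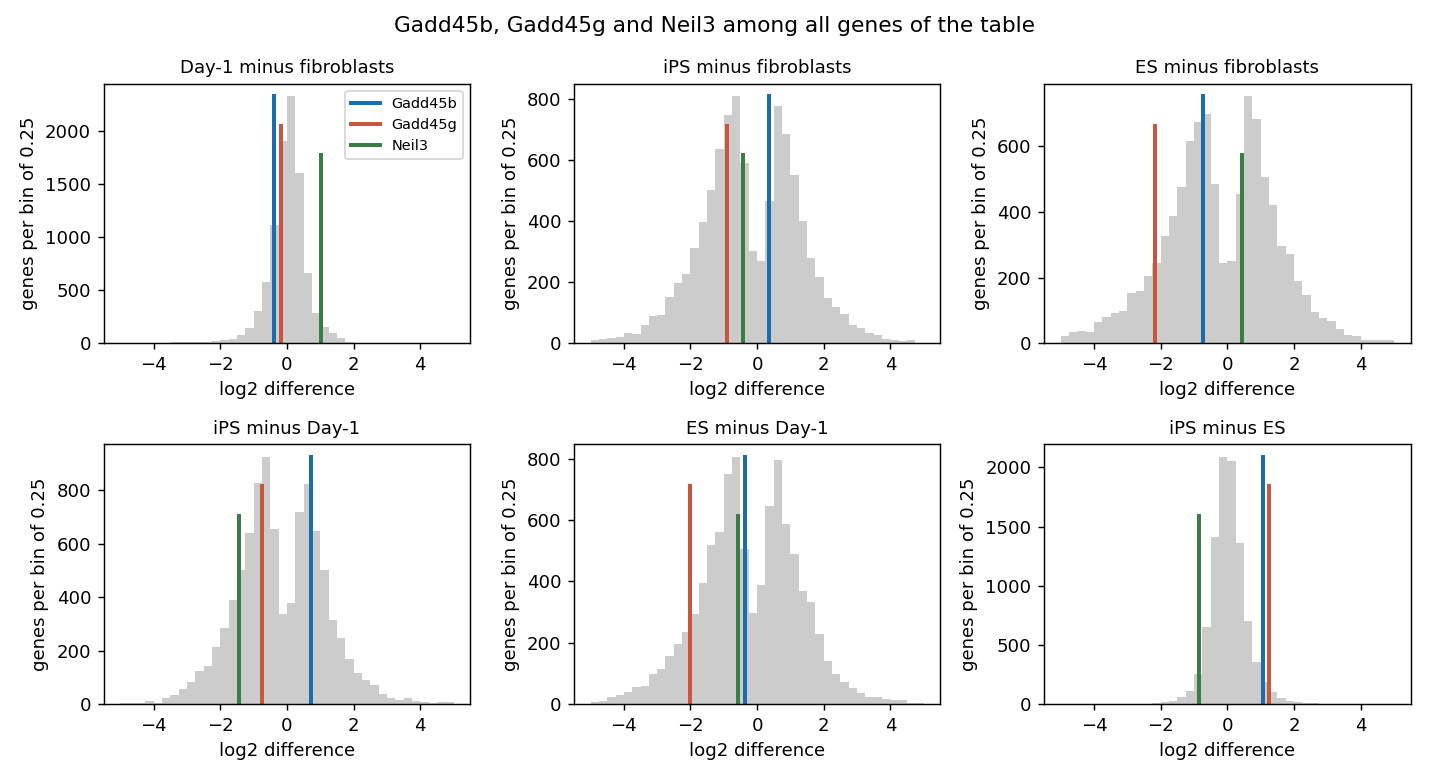
Number of genes per bin of 0.25 (grey bars) by log2 difference in each of the 6 comparisons, drawn from -5 to 5, with Gadd45b, Gadd45g and Neil3 as coloured lines whose heights carry no value. Neil3 lies in the upper tail in day-1 cells against fibroblasts (1.02), and Gadd45b (1.09) and Gadd45g (1.26) lie in the upper tail in iPS against ES cells.

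Cell cycle and repair genes were set beside Neil3. In day-1 cells against fibroblasts all 23 measured G2/M genes and 19 of 28 S-phase genes rose, with median differences of 1.39 and 1.15, near the 1.02 of Neil3. In iPS cells against fibroblasts 19 G2/M and 25 S-phase genes rose and none fell, with medians of 1.90 and 2.71, where Neil3 had -0.43. In iPS cells against day-1 cells 6 G2/M and 19 S-phase genes rose and none fell, with medians of 0.57 and 1.66, where Neil3 had -1.44. In ES cells against fibroblasts 20 and 24 rose, with medians of 2.10 and 2.69, where Neil3 had 0.43, and in ES against day-1 cells 7 and 21 rose, with medians of 0.74 and 1.64, where Neil3 had -0.58. Between iPS and ES cells limma called 0 of either list, with 15 G2/M and 8 S-phase genes at an unadjusted p under 0.05 and medians of -0.23 and -0.04, beside -0.86 for Neil3. Of all genes only 6.9% were called there. The shares were 7.79% in day-1, 51.3% in iPS and 55.6% in ES cells against fibroblasts. Against day-1 cells they were 44.2% in iPS and 49.9% in ES cells. The 6 and 7 of 23 G2/M genes called against day-1 cells fall below those last 2 shares, which count both directions. The difference between Neil3 and these lists was not tested. Both lists averaged brighter than Neil3 in every group, and Neil3 is a dim gene of the table, so sizes of difference may not compare directly.

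**Figure D4:**
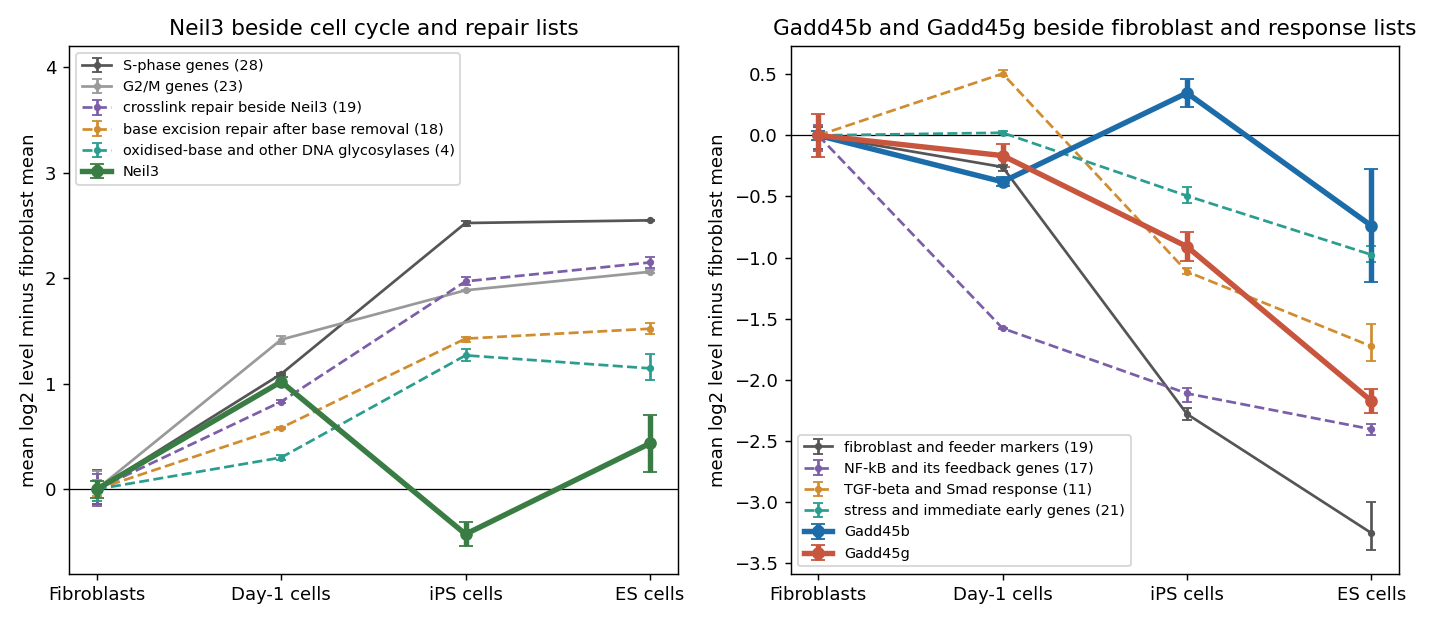
Mean log2 level minus the fibroblast mean for Neil3 and 5 lists (left panel) and for Gadd45b, Gadd45g and 4 lists (right panel), with the number of measured genes in brackets. Bars show the SD over 3 arrays for single genes and the lowest and highest array for lists, and the lines only join the groups. Neil3 and the S-phase list stood at 1.02 and 1.09 in day-1 cells and at -0.43 and 2.52 in iPS cells.

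In iPS cells 3 of the 4 other glycosylases measured rose, where Neil3 was at its lowest. Of 10 on that list 4 were measured, and Neil1, Neil2, Nthl1 and Tdg were not analysed here. In iPS cells against fibroblasts Ung, which removes uracil, rose by 3.09 ± 0.12, Mutyh, which removes adenine opposite oxidised guanine, by 1.72 ± 0.10 and Mbd4, which acts on mismatched thymine at CpG sites, by 1.32 ± 0.07, while the alkylation glycosylase Mpg fell by 1.05 ± 0.10. ES cells gave the same 3 higher and 1 lower. Limma called 51.3% of all genes in iPS and 55.6% in ES cells against fibroblasts, and 4 genes are few beside such shares. In day-1 cells against fibroblasts, where Neil3 rose, limma called 0 of the 4 (2 at an unadjusted p under 0.05). Since limma called 7.79% of all genes there, 0 of 4 does not set these genes apart.

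Of 25 genes that act after base removal 18 were measured. In iPS cells 14 rose against fibroblasts and 1 fell, with a median of 1.61, with the largest changes in the DNA ligase Lig1 (3.37 ± 0.10), the strand-break sensor Parp1 (3.37 ± 0.06), its relative Parp3 (-3.36 ± 0.16) and the single-strand binding subunit Rpa2 (2.83 ± 0.06). In ES cells 14 rose and 1 fell (median 1.82), and in day-1 cells 4 rose (median 0.75), each against fibroblasts. Against day-1 cells 8 rose and 1 fell in iPS cells (median 0.96) and 12 rose and 1 fell in ES cells (median 1.05). Limma called 51.3% of all genes in iPS, 55.6% in ES and 7.79% in day-1 cells against fibroblasts. The medians of all genes were -0.35, -0.35 and 0.05 there. Against day-1 cells the shares were 44.2% in iPS and 49.9% in ES cells, with medians of -0.34 and -0.32.

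Crosslink repair genes, the pathway in which Neil3 opens strand crosslinks, were measured for 19 of 24. In iPS cells 16 rose against fibroblasts and 0 fell, led by the replicative helicase subunit Mcm3 (3.98 ± 0.12), Brca1 (3.26 ± 0.10) and the Fanconi pair Fanci (3.03 ± 0.08) and Fancd2 (3.01 ± 0.12), and the ubiquitin ligase Traip, which acts upstream of Neil3, rose by 1.64 ± 0.11. In day-1 cells 5 rose against fibroblasts (median 0.78), led by Fancb (1.60 ± 0.10), and Traip, named after its values were seen, differed by 0.68. Between iPS and ES cells limma called 0 of the base removal, gap filling and crosslink genes, with 1 of 4, 9 of 18 and 10 of 19 at an unadjusted p under 0.05, while Neil3 differed by -0.86. Of all genes only 6.9% were called in that comparison, and Neil3 was not called either. Against fibroblasts, 51.3% of all genes were called in iPS and 7.79% in day-1 cells. The S-phase, gap filling and crosslink lists share Pcna, Lig1, Fen1, Rpa2, Mcm3, Mcm7 and Cdc45 in part, and Ung is also on the S-phase list, so they are not separate evidence.

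A list of genes that oxidise, deaminate, methylate or bind cytosine had 17 of 20 members in the table. Tet1, an introduced factor, differed from fibroblasts by 0.79 ± 0.09 at day 1, by 3.58 ± 0.09 in iPS cells and by 4.68 ± 0.09 in ES cells. Pou5f1 differed by 6.76, 6.97 and 7.33 in the same comparisons, each with an SE of 0.08. In that list 11 rose and 3 fell in the iPS line, 10 rose and 3 fell in ES cells and 2 rose at day 1, against fibroblasts, with medians of 1.46, 1.23 and 0.10. For all genes these medians were -0.35, -0.35 and 0.05, and limma called 51.3%, 55.6% and 7.79% in the same order. At day 1, 2 of 17 does not set the list apart from that share. The list mixes roles: of its 4 largest rises in iPS cells, Dnmt3l (4.71), Uhrf1 (3.71) and Dnmt3b (3.5) serve to add or maintain methylation and Tet1 oxidises it. Gadd45g had its lowest level, and Gadd45b its lowest mean, in ES cells, where Tet1 was highest at 11.36.

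Gadd45a, the family member outside the symbols chosen, rose in the pluripotent lines, where Gadd45g had its lower levels. Its log2 levels were 8.15, 8.73 and 8.68 in fibroblasts, 7.47, 7.28 and 7.30 in day-1 cells, 9.83, 9.62 and 9.68 in iPS cells and 10.89, 10.87 and 10.80 in ES cells. The 4 groups did not overlap, which was not counted over all genes. Gadd45a rose by 2.33 ± 0.13 in ES cells (limma adjusted p = 8.4e-10) and by 1.19 ± 0.13 in iPS cells (limma adjusted p = 1.0e-06) and fell by 1.17 ± 0.13 in day-1 cells (limma adjusted p = 7.6e-06), each against fibroblasts. It was lower in iPS than in ES cells (-1.14 ± 0.13, limma adjusted p = 9.9e-06), where Gadd45b and Gadd45g were higher. Of 12 genes in the family and partner list, 7 were measured, and in day-1 cells Ccnb2 (1.28), Cdk1 (1.24) and Pcna (1.15) rose and Gadd45a fell. The kinase partner Map3k4 differed from fibroblasts by 0.45 at day 1, by 0.61 in the iPS line and by 0.83 in the ES line, and was not called; it was named after its values were seen. In iPS cells Pcna and Ccnb2 rose with Gadd45a, and Ciz1, a PCNA-associated replication factor, fell (-1.61). Against fibroblasts, 3 of the 7 thus rose and 1 fell in day-1 and in iPS cells alike. Limma called 7.79% and 51.3% of all genes there, so the iPS count is near the share of all genes.

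The stress kinase list had 9 of 16 genes in the table. In ES cells against fibroblasts 4 fell and 0 rose, Jun (-2.82 ± 0.12), the p38 target kinase Mapkapk2 (-2.53 ± 0.14), the p38 isoform Mapk11 (-1.55 ± 0.09) and the p38 activator Map2k3 (-1.43 ± 0.11). In iPS cells against fibroblasts 3 fell and Map2k6, another p38 activator, rose by 1.19. In day-1 cells 0 of the 9 were called by limma, with 7 at an unadjusted p under 0.05. Of all genes 55.6% were called in ES, 51.3% in iPS and 7.79% in day-1 cells against fibroblasts. In ES cells the list median was -0.24, beside -0.35 for all genes, so these counts do not set the list apart. Jun was higher in iPS than in ES cells (1.11 ± 0.12), as were Gadd45b and Gadd45g.

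Genes of the pathways known to induce Gadd45b were read next. Of 17 measured NF-kB and feedback genes (22 listed) 10 fell and 0 rose in day-1 cells against fibroblasts, with a median of -1.69, led by Cxcl2 (-3.92), Il6 (-3.49), Ccl2 (-2.58) and Cxcl1 (-2.56), beside -0.38 for Gadd45b. In iPS cells 10 fell against fibroblasts (median -1.95), beside 0.35 for Gadd45b, and in ES cells 13 fell (median -2.35), beside -0.74. Of 11 measured TGF-beta genes (20 listed) 5 rose and 1 fell in day-1 cells (median 0.81), 4 fell in iPS cells (median -0.94) and 8 fell in ES cells (median -1.38), against fibroblasts. Between iPS and ES cells 4 TGF-beta genes were higher in iPS cells and 1 lower, with Tgfb3 (2.01), Id2 (1.98) and Tgfb2 (1.53) on top and Tgfb1 (-1.17) lower. Of 21 measured stress and immediate early genes (25 listed) 4 were higher in iPS than in ES cells, Egr2 (1.74), Ier3 (1.66), Egr1 (1.33) and Jun (1.11), and Myc was lower (-1.26). Against fibroblasts that list had 2 higher and 2 lower in day-1 cells, 4 and 8 in iPS cells and 3 and 11 in ES cells. Of 14 measured p53 targets (23 listed) 2 fell in day-1 cells, Fas (-2.33) and Trp53inp1 (-1.36), and 4 rose and 6 fell in iPS cells and 3 rose and 4 fell in ES cells, against fibroblasts. Beside these counts, limma called 7.79% of all genes in day-1, 51.3% in iPS and 55.6% in ES cells against fibroblasts. The share was 6.9% for iPS against ES cells.

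By mean level, the order of Gadd45g over the groups was also that of the fibroblast marker list. That list averaged 11.3 to 11.5 on the log2 scale on fibroblast arrays, 11.1 to 11.2 on day-1 arrays, 9.07 to 9.17 on iPS arrays and 8.01 to 8.40 on ES arrays. The order was not particular to these markers. The NF-kB list averaged 9.82, 8.24, 7.70 and 7.41 in fibroblasts, day-1, iPS and ES cells, and the macrophage list 7.55, 7.27, 6.31 and 6.24. For Gadd45g, fibroblasts and day-1 cells overlapped (limma adjusted p = 0.17), so the order of these groups is not settled. In iPS against ES cells, where Gadd45b and Gadd45g were called higher, 8 of the 19 markers were higher and 1 lower, with Lox (3.03), Acta2 (2.82), Postn (2.74) and Col1a2 (2.60) higher and Dcn lower (-2.08). The other 10 were not called. Within ES cells the marker list averaged 8.01, 8.40 and 8.03 on replicates 1, 2 and 3, where Gadd45b had 8.81, 9.12 and 8.21 and Gadd45g had 7.37, 7.30 and 7.50. On replicate 2, where the markers were highest, Gadd45b was at its highest and Gadd45g at its lowest. The part that feeder cells have in these values was not tested, and a smaller share of cells with the RNA and less RNA per cell cannot be told apart in bulk samples. Strain, passage and line also differ between iPS and ES cells and cannot be told apart from the group.

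Likeness of profile was measured as the root-mean-square difference, over the 12 arrays, between log2 values centred on the mean of each gene. The genes nearest to Gadd45b were Amotl2, an angiomotin family scaffold (0.17), Sgpl1, which breaks down sphingosine phosphate (0.19), Aifm2 (0.20), Mtarc2 (0.21) and Purg (0.22). Nearest to Gadd45g were the sphingomyelinase Smpd2 (0.12), the sterol transfer protein Gramd1a (0.13), the actin-associated Afap1 (0.13), Pttg1ip (0.18) and the adhesion receptor Pvr (0.18). Nearest to Neil3 were the adhesion molecule Nectin3 (0.17), Syt5 (0.18), the receptor phosphatase Ptprj (0.20), the serum response factor Srf (0.21) and Vash2 (0.21). Gadd45b and Gadd45g lay 0.77 apart, and 55.1% of genes lay nearer to Gadd45b than Gadd45g did. Gadd45a lay 2.13 from Gadd45g, and 97.4% of genes were nearer. Neil3 lay 0.92 from Gadd45b and 1.00 from Gadd45g.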

How the data were processed

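Per the protocols in the labels, Trizol RNA was biotin-labelled for Affymetrix whole-transcript arrays. The authors deposited log2 values per probe set, and log2 was read from their range, 2.43 to 13.64, since the table names no scale. Summarisation, normalization, centring and genome build are not given in the sources used here. Every probe set varies by at least 0.51 on the log2 scale between arrays, so shares refer to varying genes. Gene symbols came from the annotation of the platform (9542 with 1 symbol, 344 with several, 474 with none), and for 3 genes with more than 1 probe set the brightest was kept.

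Differences were fitted in R 4.3.3 with limma 3.58.1 as 4 group means over 12 arrays, with eBayes and Benjamini-Hochberg adjustment over the 9539 genes. Every adjusted p comes from that fit, except where an alternative is named beside it. The steps were tested on simulated data. Lists are described by counts and medians, to be read beside the shares of all genes called. Beyond the 3 genes, the rule named at most 4 called genes per list by size, the 5 nearest profiles of each gene, Pou5f1, Tet1, Gadd45a and the glycosylases related to Neil3; further members of counts of 5 or fewer were named after their values were seen. Members and lists were chosen with earlier results of these data known. The number of arrays limits the precision, with a median SE of 0.09. Tables and plots used matplotlib 3.10.9, numpy 2.4.6 and pandas 2.3.3 under Python 3.11.15. Alternatives were quantile normalization, centring, other priors, array weights, a replicate block, treat, no fold minimum, a filter on dim genes, all probe sets, the compared groups alone and single arrays left out.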

Additional observations from a re-analysis of the deposited data

How the results depend on the processing

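Of 282 recomputed differences of Gadd45b, Gadd45g and Neil3, 264 kept direction and call, 9 lost a call, 9 gained one and 0 changed sign. Much of that tally was fixed in advance. The dim filter, the compared groups alone, the trended prior, the replicate block, treat, no fold minimum and all probe sets left each difference as it was. No sign could change there, so the totals do not measure stability. The call of Neil3 in day-1 cells against fibroblasts (1.02) ended at 0.92 after quantile normalization and in a range of 0.99 to 1.06 over left-out arrays. The call of Gadd45b in iPS against ES cells (1.09) ended at 0.99 with centred arrays and in a range of 0.83 to 1.29 over left-out arrays. Limma's treat, which tests for more than 2-fold, called neither of these, nor Gadd45g in iPS against ES cells (1.26). Apart from treat and the left-out arrays, the cause of these changes was not tested. Neil3 in iPS against ES cells was called at -1.05 after quantile normalization.

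Without a fold minimum, calls were added for Gadd45g (-0.91) and Neil3 (-0.43) in iPS cells and Gadd45b (-0.74) and Neil3 (0.43) in ES cells against fibroblasts, for Gadd45b (0.73) and Gadd45g (-0.75) in iPS and Neil3 (-0.58) in ES against day-1 cells, and for Neil3 (-0.86) in iPS against ES cells. Counts over all genes were then 5449, 8985 and 9050 for day-1, iPS and ES cells against fibroblasts, 8851 and 8914 for iPS and ES against day-1 cells and 5502 for iPS against ES cells. Treat gave 315 genes for day-1 cells against fibroblasts and 226 for iPS against ES cells, against 743 and 658. The other 88 of 96 counts stayed within 1.5 times. With centred arrays 55.9% and 58.7% of calls in iPS and ES cells against fibroblasts were higher, against 42.4% and 42.2%. Replicate numbers did not pair the arrays, since deviations of same-numbered arrays correlated with r of -0.21 to 0.06, and the replicate block changed no call of the 3 genes (Gadd45g in ES cells against fibroblasts -2.17, adjusted p = 6.6e-10). By adjusted p alone, Neil3 in ES against day-1 cells (-0.25 after quantile normalization, -0.24 with centred arrays) and, with centred arrays, in iPS cells against fibroblasts (-0.17) did not pass. Neil3 fell under the filter on the dimmest 25% of genes, so that alternative gave it no value.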
